A study of Homo sapiens with 22 samples.

Results

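Of 37908 genes in the count table, 17157 were tested for a change when BRCA2 was depleted in otherwise untreated H1299 cells. DIO2, CPA4 and SPOCD1 had the largest increases among those that also passed the conditions of the ranking below. They were selected on that measured difference. Among 410 genes that were called higher there, had a mean normalised read count of at least 100 and did not overlap between the groups, they ranked 1, 2 and 3, with log2 fold changes of 2.94 ± 0.30 (SE) for DIO2, 2.47 ± 0.16 for CPA4 and 2.25 ± 0.40 for SPOCD1. Of all genes tested in that comparison, 2.77% were called higher, and since the comparison chose the genes, nothing is read from it. The genes just outside were VSTM2L at 1.99 ± 0.28, NPTXR at 1.88 ± 0.24 and IL32 at 1.82 ± 0.17.

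H1299 is a human lung carcinoma line of the non-small cell type, and in every culture here doxycycline (DOX) could induce an shRNA against BRCA2. BRCA2-proficient cells were grown without DOX, and BRCA2-deficient cells with 2 µg/mL DOX for 3 days. Both received a control siRNA or siβ-catenin, which targets the transcript of CTNNB1, and either no inhibitor or the GSK3 kinase inhibitor LY2090314 (GSK3i) at 250 nM for 24 h. RNA from 22 libraries in these 8 groups was sequenced, with 3 libraries in each group except BRCA2-proficient untreated and BRCA2-proficient siβ-catenin, which had 2 each, numbered 2 and 3. "Untreated" means control siRNA without GSK3i. No DOX-treated culture without the shRNA was among the groups, so DOX and BRCA2 depletion cannot be told apart. All cells derive from 1 cell line with 1 shRNA system.

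BRCA2 protects replication forks and repairs DNA breaks by homologous recombination. GSK3 marks β-catenin for degradation, so that its inhibition lets β-catenin accumulate and act with TCF/LEF factors on transcription. The 3 genes belong to unrelated families. DIO2 is the type 2 iodothyronine deiodinase, a selenoenzyme of the endoplasmic reticulum that converts thyroxine to the active thyroid hormone inside the cell, and its promoter is known for its response to cAMP. CPA4 is a secreted zinc carboxypeptidase that removes hydrophobic residues from the C-terminus of peptides, and its gene lies in the imprinted cluster around MEST. SPOCD1 carries a SPOC domain and is known in the male germline as a nuclear partner of piRNA-directed DNA methylation.

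In GRCh37, the build of the count table, DIO2 lies on the minus strand at chr14:80663869-80854100, CPA4 on the plus strand at chr7:129932974-129964020 and SPOCD1 on the minus strand at chr1:32256023-32281623. All are protein-coding genes. The promoters are shown because the 3 genes were higher together, and so that a reader can see which short motifs each holds. RefSeq gives 1 start site for CPA4, 1 for SPOCD1 and 2 for DIO2 in GRCh38.p14, and the upstream DIO2 site is shown; the other lies 674 bases downstream. Each line runs 5′ to 3′ on the gene's strand from 150 bases before to 10 bases after the start site, at chr14:80212169-80212328 (minus) for DIO2, chr7:130293011-130293170 (plus) for CPA4 and chr1:31816013-31816172 (minus) for SPOCD1. Capitals mark a cAMP response element (CRE) and a TATA box in DIO2, 2 AP-1 motifs around a TATA box read on both strands in CPA4, and an E-box across the start site in SPOCD1.
DIO2: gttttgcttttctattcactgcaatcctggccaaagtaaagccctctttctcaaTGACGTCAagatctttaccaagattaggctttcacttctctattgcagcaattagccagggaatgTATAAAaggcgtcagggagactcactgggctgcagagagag
CPA4: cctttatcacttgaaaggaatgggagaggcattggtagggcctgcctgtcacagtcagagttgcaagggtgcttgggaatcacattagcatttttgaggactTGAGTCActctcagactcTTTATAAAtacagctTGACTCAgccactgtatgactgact
SPOCD1: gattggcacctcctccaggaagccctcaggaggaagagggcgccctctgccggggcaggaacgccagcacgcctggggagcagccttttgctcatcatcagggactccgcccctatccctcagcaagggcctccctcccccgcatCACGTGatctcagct

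Motifs were searched on both strands of all 35116 RefSeq promoter windows, each holding 250 bases before and 50 after a start site. The CRE (TGACGTCA) stood in 1.85% of the windows, the AP-1 motif (TGANTCA) in 7.71%, the E-box (CACGTG) in 7.26% and TATAAA in 11.5%. The DIO2 CRE began at position -96 from the start site and its TATAAA at -31, while the CPA4 AP-1 motifs began at -48 and -15. Other matches are not capitalised. The CRE core TGACG, which lies inside the CRE, was in 24.6% of windows and occurred in DIO2 also at -22, and the downstream DIO2 window held an AP-1 motif at +13. The TCF/LEF motif CTTTGAT, in 2.62% of windows, had no match in any of the 4 windows of the 3 genes. The GC content of the windows was 42.3% and 48.0% for DIO2, 46.3% for CPA4 and 62.7% for SPOCD1, against a median of 58.7% over all windows. They held 3, 3, 1 and 9 CpG dinucleotides, against a median of 14.

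Before the genes are described, the libraries were compared with their labels. Library totals were between 18938266 and 29280122 counts. BRCA2 itself had normalised counts of 71.4 to 225.3 in BRCA2-deficient and 513.6 to 1111 in BRCA2-proficient libraries, and CTNNB1 976.8 to 2217 with siβ-catenin and 5206 to 8669 without. Of the cell type markers, KRT8, KRT18, VIM, CDH2 and FN1 were at 1694 normalised counts or more in every library, whereas EPCAM, CDH1, SFTPC, SFTPB, NAPSA, PTPRC, VWF, CDH5, LUM and PDGFRB had medians between 0 and 11.6. Between them stood DCN (median 30.8) and NKX2-1 (median 40.0, from 19.8 to 108.3), whose part in the results was not tested. The GSK3i labels were checked with 112 genes that GSK3i lowered in control siRNA cells of both backgrounds. Control siRNA libraries chose these genes, so their separation was given in advance and only the siβ-catenin libraries are checked. The mean log2 level of the 112 genes was 9.39 to 9.84 in the untreated libraries and the BRCA2-deficient siβ-catenin libraries. It was 7.39 to 8.23 in the libraries labelled GSK3i, with or without siβ-catenin, apart from 1. The exception, labelled BRCA2-proficient GSK3i and siβ-catenin replicate 2, stood at 9.58. The library labelled BRCA2-proficient siβ-catenin replicate 2 stood at 7.77, among the GSK3i libraries, and replicate 3 of that group at 8.80, between the levels. AXIN2, a β-catenin target, was at 73.1 in the library that stood at 9.58, against 117.4 to 227.1 in the other libraries with both treatments. In the BRCA2-proficient siβ-catenin pair it was at 67.2 and 65.0, against 80.8 to 96.9 in the BRCA2-deficient libraries of that arm. Proficient untreated libraries read 82.4 and 72.3, and proficient replicates 1 and 3 with both treatments 145.0 and 117.4. By AXIN2, replicate 2 of the pair thus stood nearer the libraries without GSK3i, unlike by the 112 genes. Tests that rest on these libraries are given with them and, where a fit can be had, without them.

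**Figure D1:**
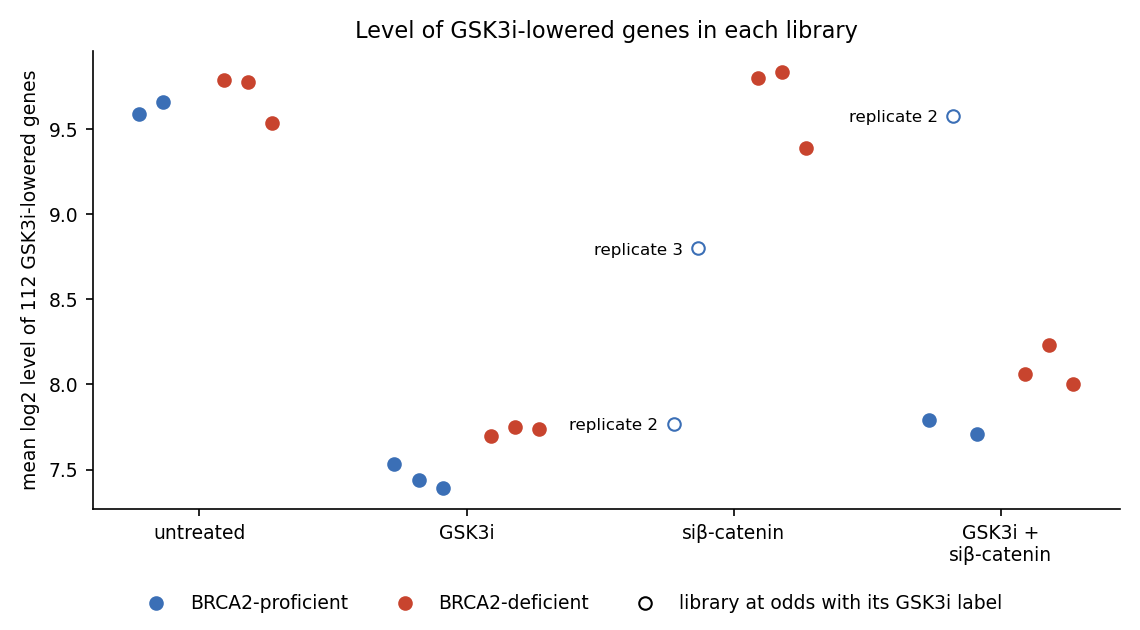
Mean log2 level of 112 GSK3i-lowered genes (vertical axis) in each of 22 libraries, by treatment arm (horizontal axis) and BRCA2 status (colour). Open symbols are the 3 BRCA2-proficient libraries at 7.77, 8.80 and 9.58, which stand away from the level of their labelled arm.

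The DIO2 level varied with both BRCA2 status and GSK3i. In untreated cells its normalised count was 39.5 and 35.2 in the BRCA2-proficient libraries and 239.2, 323.9 and 309.0 in the BRCA2-deficient ones. With GSK3i it was 25.6, 25.0 and 21.4 in proficient and 33.2, 47.7 and 51.9 in deficient libraries. With siβ-catenin alone the values were 37.5 and 37 against 259.7, 386.8 and 305.2. The BRCA2-deficient groups without GSK3i thus stood far above all others, and the deficient group with GSK3i stood next to the proficient libraries. With both treatments DIO2 was at 37.3, 39.5 and 53.7 in proficient and 133.0, 156.2 and 166.4 in deficient libraries, an intermediate level in the deficient cells. By group means, the order ran from deficient siβ-catenin (317.2 ± 64.4 SD, n = 3) and deficient untreated (290.7 ± 45.2, n = 3), whose ranges overlapped, to deficient GSK3i and siβ-catenin (151.9 ± 17.1, n = 3), which overlapped with neither neighbour. Below these, deficient GSK3i (44.3 ± 9.79, n = 3), proficient GSK3i and siβ-catenin (43.5 ± 8.92, n = 3), proficient untreated (37.3 ± 3.01, n = 2) and proficient siβ-catenin (37.2 ± 0.347, n = 2) overlapped, each with its neighbour in that order. Proficient GSK3i (24.0 ± 2.27, n = 3) was lowest, below all of them without overlap. The low groups rest on few reads, 19 to 59 raw counts per proficient library. DIO2-AS1, an antisense gene that starts within DIO2, had 0 to 2 counts in every library. In bulk RNA, a change in the level per cell and a change in the share of cells with the transcript cannot be told apart.

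CPA4 was the most abundant of the 3 and separated the BRCA2 states in every arm. Its 10 BRCA2-proficient libraries lay between 512.0 and 932.6 normalised counts (median 655.1). Its 12 BRCA2-deficient libraries lay between 2364 and 4170 (median 3041), with no overlap over all arms. The untreated arm chose the genes, so separation there was given in advance. How many of all genes separate in the other arms was not counted. The deficient libraries read 3154, 3214 and 2793 untreated, 2666, 2364 and 2364 with GSK3i, 3630, 4170 and 3103 with siβ-catenin, and 2979, 3287 and 2730 with both. The proficient libraries read 571.2 and 512.0 untreated, 917.8, 523.4 and 630.3 with GSK3i, 679.9 and 693.6 with siβ-catenin, and 932.6, 601.5 and 853.7 with both. The treatment groups lay closer to each other than the BRCA2 states did. Group means went from 2464 ± 174.3 with GSK3i to 3635 ± 533.8 with siβ-catenin in deficient cells and from 541.6 ± 41.8 untreated to 795.9 ± 172.9 with both in proficient cells. Within the proficient background, the groups with both treatments, GSK3i and siβ-catenin overlapped in that order, and the untreated pair was below them in mean; its range overlapped with that of GSK3i.

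SPOCD1 was higher in BRCA2-deficient libraries within every arm and varied most among replicates, with the highest coefficient of variation of the 3 genes in each of the 8 groups, between 7.7% and 58.8%. In untreated cells it was at 60.4 and 88.5 normalised counts in proficient and 358.2, 190.6 and 531.1 in deficient libraries. With GSK3i it was at 116.5, 44.4 and 47.4 against 357.4, 218.4 and 361.2. Neither arm showed an overlap, which in the untreated arm was a condition of the ranking. How many of all genes separate with GSK3i was not counted. Relative to their mean, the deficient values varied more than those of CPA4. With siβ-catenin SPOCD1 was at 134.4 and 149.9 against 583.2, 390.2 and 895.2, and with both treatments at 297.1, 98.2 and 197.5 against 765.3, 524.0 and 776.5. Its highest group means were thus the deficient groups with siβ-catenin, 688.6 ± 142.7 (SD, n = 3) with GSK3i and 622.8 ± 254.8 (n = 3) without. Those were followed by deficient untreated (360.0 ± 170.2, n = 3) and deficient GSK3i (312.3 ± 81.4, n = 3), and all 4 overlapped with the next in order. The proficient groups ran from 197.6 ± 99.5 with both treatments through 142.2 ± 10.9 with siβ-catenin and 74.4 ± 19.9 untreated to 69.4 ± 40.8 with GSK3i. In each of the 4 deficient groups the library numbered 2 had the lowest SPOCD1 count.

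**Figure D2:**
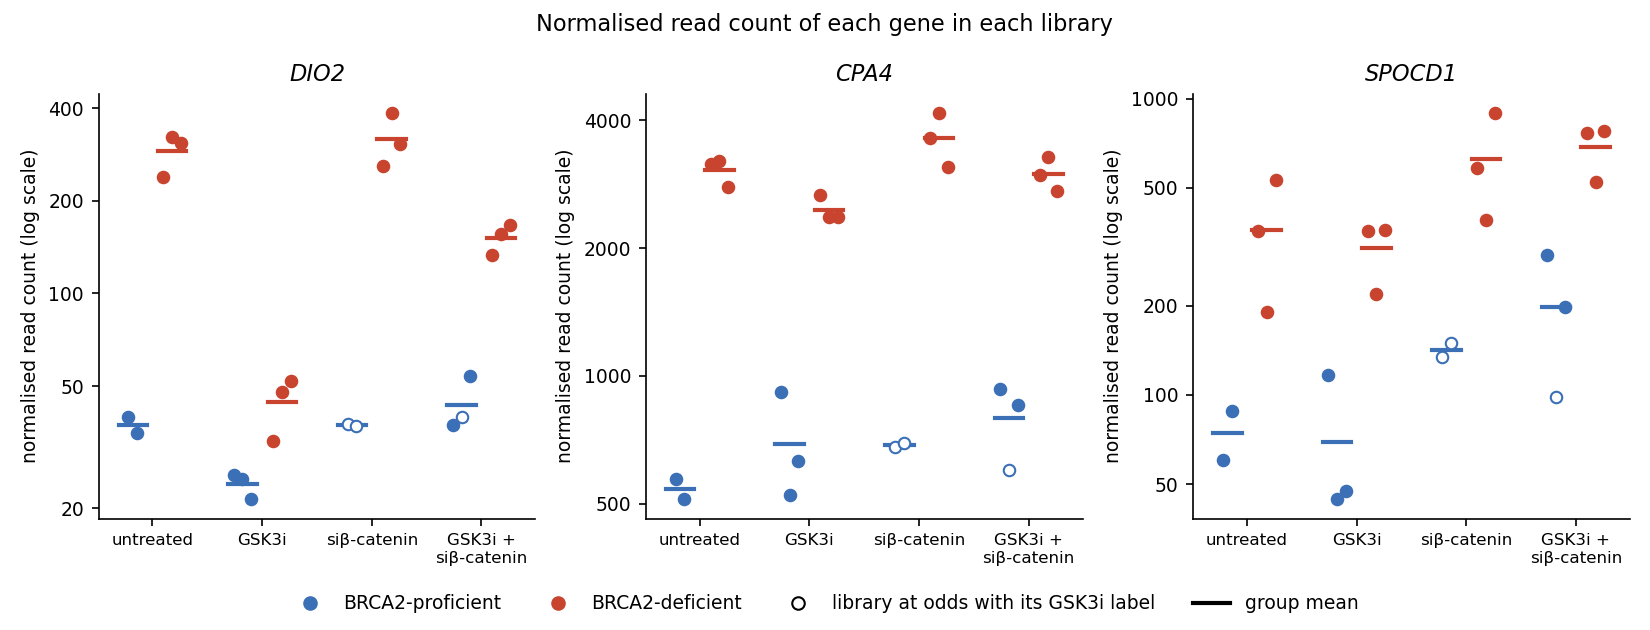
Normalised read counts (vertical axes, log scale) of DIO2, CPA4 and SPOCD1 in each library by treatment arm (horizontal axes), with BRCA2 status in colour, group means as lines and the 3 libraries at odds with their labelled arm as open symbols. BRCA2-deficient libraries lie above proficient ones in every arm for all 3 genes. In the untreated arm, which chose the genes, this separation was given in advance. How many of all genes separate in the other arms was not counted, so nothing is read from the separation there. The DIO2 gap is smallest with GSK3i, where the deficient libraries read 33.2 to 51.9.

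Levels of different genes can be compared only per length. As FPKM, which scales counts to exon length and to the library total and was computed here from the counts, untreated BRCA2-deficient cells had 34.4 ± 2.18 (SD, n = 3) for CPA4, 2.28 ± 1.10 for SPOCD1 and 1.76 ± 0.278 for DIO2. The untreated proficient pair had 5.97 ± 0.429, 0.461 ± 0.126 and 0.220 ± 0.0166. CPA4 was therefore the highest of the 3 in both states, and the order of the others was not separable in deficient cells, where SPOCD1 spanned 1.20 to 3.40.

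The question of whether the 3 genes also differ by BRCA2 status under other conditions was tested in the 17 libraries that did not choose them, with a gene called at an adjusted p below 0.05 and a log2 fold change beyond 0.5 in size. These are other libraries of the same series, and same-numbered ones may come from the same experiment. Same-numbered untreated and treated libraries of BRCA2-deficient cells deviated together from their group means. The r of these deviations over genes was 0.27 to 0.76 with GSK3i and 0.18 to 0.53 with siβ-catenin. In BRCA2-proficient cells it was 0.09 to 0.14 and -0.09. The tests may thus not be independent of the choice of the genes. In cells given GSK3i, SPOCD1 rose by 2.17 ± 0.36 on the log2 scale (4.5-fold, adjusted p = 3.05e-07, DESeq2) and CPA4 by 1.83 ± 0.21 (3.56-fold, adjusted p = 9.47e-16). DIO2 did not pass, at 0.89 ± 0.39 (adjusted p = 0.146, 95% interval 0.13 to 1.65). Its 3 deficient libraries were above the 3 proficient ones, and the share of all genes that do so was not counted. In that comparison 3.76% of all genes were called higher, and 2 of the 3 genes were. Ranked by log2 fold change among the 453 genes called higher with a mean of at least 100, SPOCD1 stood at 3 and CPA4 at 5. This arm holds none of the doubted libraries. Ranked in the same way with siβ-catenin alone, DIO2, CPA4 and SPOCD1 stood at 5, 38 and 66 of 1796 genes. With both treatments they stood at 10, 6 and 11 of 483.

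With siβ-catenin and no GSK3i, all 3 genes rose with BRCA2 depletion, DIO2 by 3.07 ± 0.30 (8.4-fold, adjusted p = 1.44e-21), CPA4 by 2.38 ± 0.19 (5.21-fold, adjusted p = 6.11e-34) and SPOCD1 by 2.11 ± 0.33 (4.32-fold, adjusted p = 7.06e-09). Here 13.6% of all genes were called higher, and both proficient libraries were among the doubted ones. Without proficient replicate 2, which leaves 1 proficient library assumed to vary like the others, the changes were 3.07 ± 0.38 for DIO2, 2.35 ± 0.23 for CPA4 and 2.02 ± 0.37 for SPOCD1, all called. With both treatments all 3 rose as well, CPA4 by 1.91 ± 0.20 (adjusted p = 9.48e-18), DIO2 by 1.80 ± 0.29 (adjusted p = 1.39e-07) and SPOCD1 by 1.80 ± 0.33 (adjusted p = 7.2e-06), where 3.38% of all genes were called higher. Without the doubted library of that arm they were at 1.73 ± 0.16, 1.72 ± 0.30 and 1.47 ± 0.25, all called.

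Over the 3 treated arms together, with the arm as a term, the changes were 2.02 ± 0.13 for CPA4 (adjusted p = 1.08e-51), 2.02 ± 0.23 for SPOCD1 (adjusted p = 1.89e-16) and 1.87 ± 0.24 for DIO2 (adjusted p = 3.82e-13), against 11.1% of all genes called higher. Leaving out the 3 doubted libraries removed every proficient library with siβ-catenin alone. The changes were then 1.79 ± 0.13 for CPA4, 1.84 ± 0.27 for SPOCD1 and 1.33 ± 0.21 for DIO2, all called. The BRCA2 log2 difference of CPA4 and SPOCD1 lay between 1.80 and 2.47 in every arm, untreated included, while that of DIO2 went from 0.89 with GSK3i to 3.07 with siβ-catenin.

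**Figure D3:**
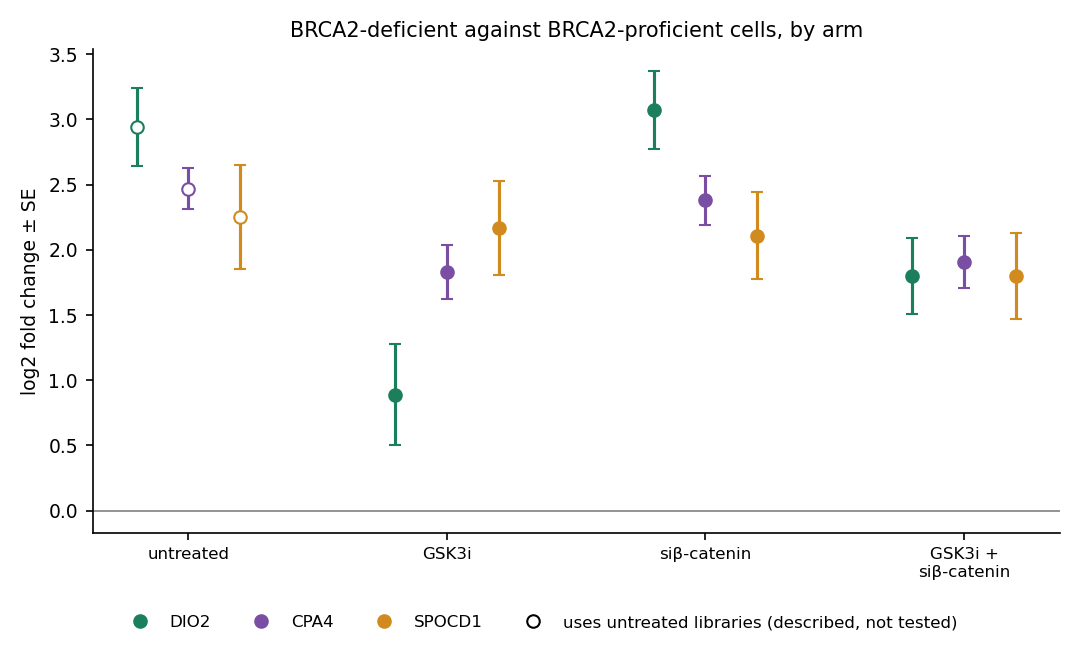
Log2 fold change ± SE (vertical axis) of BRCA2-deficient against BRCA2-proficient cells in each treatment arm (horizontal axis) for DIO2, CPA4 and SPOCD1 (colours). Open symbols mark the untreated comparison that chose the genes; in the tested arms CPA4 and SPOCD1 lie between 1.80 and 2.38, and DIO2 between 0.89 with GSK3i and 3.07 with siβ-catenin.

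The next question is how GSK3i moved each gene. In control siRNA cells the comparison uses the untreated libraries that chose the genes, so it is a description only. In BRCA2-deficient cells DIO2 went from a mean of 290.7 to 44.3 (log2 fold change -2.71 ± 0.26), with every GSK3i library below every untreated one. In proficient cells it went from 37.3 to 24.0 (-0.65 ± 0.47), also without overlap, and the difference between the backgrounds in the log2 response was -2.07 ± 0.41. For CPA4 the log2 changes were -0.31 ± 0.14 in deficient and 0.33 ± 0.22 in proficient cells. For SPOCD1 they were -0.21 ± 0.35 and -0.12 ± 0.42, smaller than their errors.

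In siβ-catenin cells the effect of GSK3i could be tested, since these libraries did not choose the genes. DIO2 fell by 1.06 on the log2 scale in BRCA2-deficient cells (SE 0.21, adjusted p = 1.64e-05), 2.08-fold lower with GSK3i, and the groups did not overlap. CPA4 was at -0.27 ± 0.16 (adjusted p = 0.214; 95% interval -0.59 to 0.04) and SPOCD1 at 0.15 ± 0.27 (adjusted p = 0.737; -0.37 to 0.68), neither past the test. One of the 3 genes was called where 20.1% of all genes were called in either direction. With the replicate number as a block in DESeq2, CPA4 was at -0.27 ± 0.1 (adjusted p = 0.0343), under the size required for a call. SPOCD1 was then at 0.2 ± 0.16 (adjusted p = 0.335). In proficient cells none passed, with DIO2 at 0.24 ± 0.45, CPA4 at 0.22 ± 0.25 and SPOCD1 at 0.48 ± 0.45 (all adjusted p = 1.0). Only 0.0529% of all genes were called there, 9 of 17010, and 263 had an unadjusted p below 0.05. Without the library numbered 2 of each group, 1099 genes were called and the 3 genes were at 0.31 ± 0.75, 0.37 ± 0.20 and 0.73 ± 0.38, none called; DIO2 then received no adjusted p. The difference between the backgrounds in this GSK3i response was -1.29 ± 0.39 for DIO2 (adjusted p = 0.0869), -0.49 ± 0.28 for CPA4 (adjusted p = 0.361) and -0.33 ± 0.53 for SPOCD1 (adjusted p = 0.783). None was called, and 0.439% of all genes were. The DIO2 difference was called with the replicate number as a block (-1.38 ± 0.39, adjusted p = 0.0297) and with 1 model over all groups (-1.29 ± 0.36, adjusted p = 0.0223). Without the libraries numbered 2 of the proficient groups the differences were -1.37 ± 0.47, -0.65 ± 0.27 and -0.58 ± 0.50, none called.

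In BRCA2-deficient cells given GSK3i, β-catenin depletion raised DIO2 and SPOCD1. DIO2 rose by 1.76 ± 0.27 on the log2 scale (3.39-fold, adjusted p = 2.6e-08), from a mean of 44.3 to 151.9, which remained below the 290.7 of untreated deficient cells. SPOCD1 rose by 1.14 ± 0.26 (2.2-fold, adjusted p = 0.000664), a call that edgeR's test did not make (adjusted p = 0.061). CPA4 did not pass, at 0.28 ± 0.14 (adjusted p = 0.261; 95% interval 0.01 to 0.55). Here 5.52% of all genes were called. With the replicate number as a block in DESeq2, SPOCD1 in these deficient cells was at 1.15 ± 0.13 (adjusted p = 6.11e-16). CPA4 was then at 0.28 ± 0.09 (adjusted p = 0.0156), under the size required for a call. In proficient cells SPOCD1 rose by 1.53 ± 0.45 (2.9-fold, adjusted p = 0.0167), where 5.1% of all genes were called. That call was lost with edgeR (adjusted p = 0.145) and without GSK3i replicate 2 (1.29 ± 0.51, adjusted p = 0.207). It was lost also without GSK3i replicate 3 (1.32 ± 0.53, adjusted p = 0.182) or GSK3i and siβ-catenin replicate 1 (1.12 ± 0.48, adjusted p = 0.179). The call was kept without the doubted library (1.86 ± 0.38, adjusted p = 5.76e-05). DESeq2 also made it with the replicate number as a block (1.54 ± 0.32, adjusted p = 9.84e-05) and with 1 model over all groups (1.51 ± 0.42, adjusted p = 0.00758). DIO2 was at 0.88 ± 0.40 (adjusted p = 0.197) and CPA4 at 0.23 ± 0.24 (adjusted p = 0.673). The difference between the backgrounds in this response was 0.90 ± 0.40 for DIO2, 0.07 ± 0.30 for CPA4 and -0.38 ± 0.56 for SPOCD1, all with an adjusted p of 1.0 in a test that called 0.0057% of all genes, 1 of 17544, or 4 with the replicate number as a block. Without the doubted library they were 0.83 ± 0.42, -0.10 ± 0.27 and -0.70 ± 0.51, again none called.

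Without GSK3i, siβ-catenin was compared with the untreated libraries and is again a description. DIO2 differed by 0.13 ± 0.22 in deficient and -0.01 ± 0.54 in proficient cells on the log2 scale, CPA4 by 0.26 ± 0.16 and 0.33 ± 0.21, and SPOCD1 by 0.79 ± 0.35 and 0.92 ± 0.37. Both proficient siβ-catenin libraries are doubted, and with replicate 3 alone the proficient values were -0.01 ± 0.82, 0.36 ± 0.24 and 1.01 ± 0.53. SPOCD1 was thus on average higher with siβ-catenin in all 4 pairings of BRCA2 state and GSK3i, whereas the mean of DIO2 was higher by over 0.5 with siβ-catenin only where GSK3i was present. These comparisons share libraries with those above and are not independent of them.

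**Figure D4:**
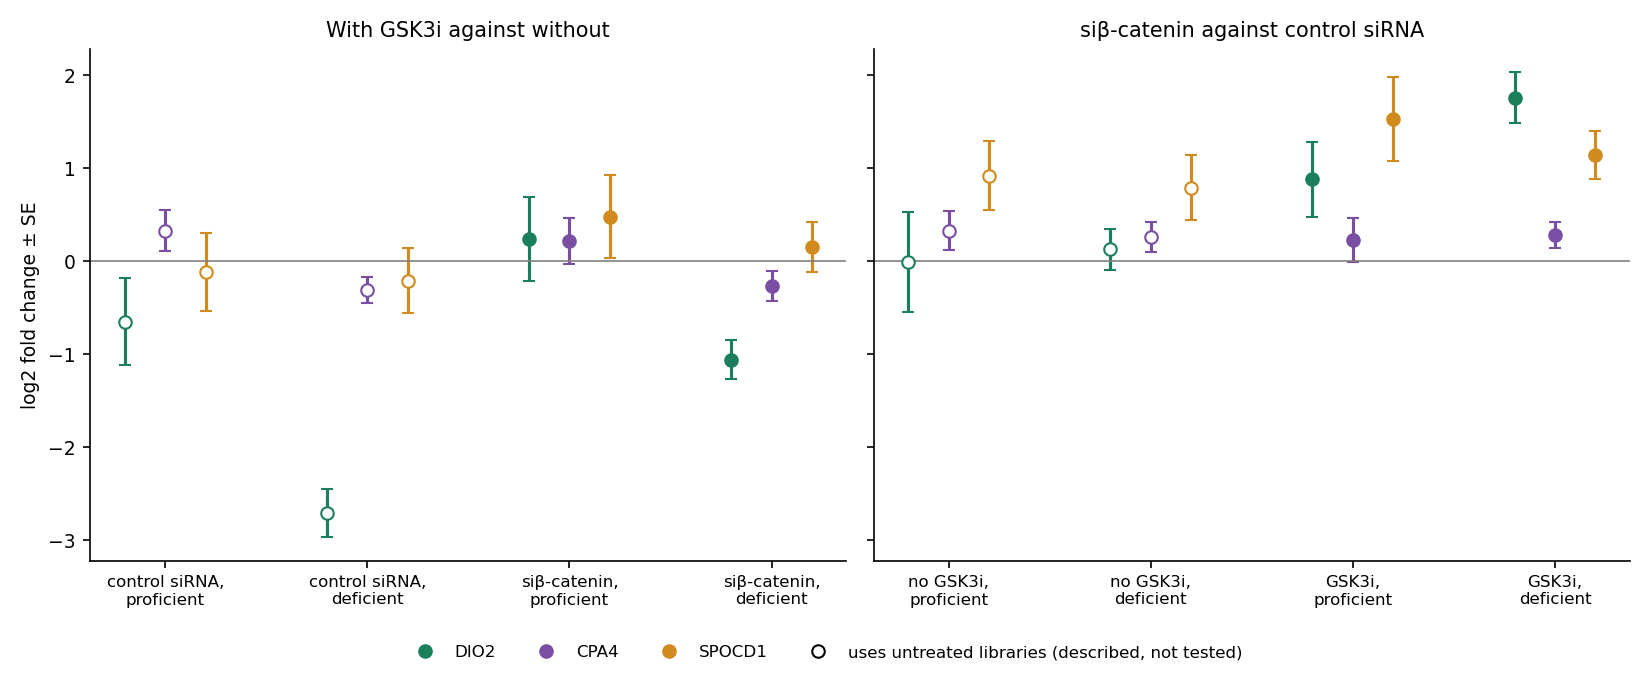
Log2 fold changes ± SE (vertical axis) of DIO2, CPA4 and SPOCD1 with GSK3i against without (left) and with siβ-catenin against control siRNA (right), in each BRCA2 state (horizontal axes). Open symbols use the untreated libraries and are descriptions. DIO2 stands at -2.71 with GSK3i in deficient control siRNA cells, at -1.06 in deficient siβ-catenin cells, and at 1.76 with siβ-catenin in deficient cells given GSK3i.

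The genes whose pattern over the 22 libraries was most like that of each gene were found by Pearson r of log2 normalised counts among 11898 genes with a mean of at least 100, as a description. The 22 points share the split by BRCA2 status and the treatment arms. For DIO2 these were ARL6IP5 (r = 0.946), an endoplasmic reticulum membrane protein, YIPF5 (r = 0.939), which acts in transport between endoplasmic reticulum and Golgi, and CNR1 (r = 0.928), a cannabinoid receptor. Their own BRCA2 changes over the 3 treated arms were smaller than that of DIO2, at 0.58 ± 0.09, 0.34 ± 0.06 and 0.72 ± 0.12. For CPA4 they included SMPD1 (r = 0.944), the acid sphingomyelinase, and SPG7 (r = 0.940), a subunit of a mitochondrial protease, with changes of 1.26 ± 0.11 and 0.82 ± 0.07. For SPOCD1 they were PNMA3 (r = 0.935), P4HA2 (r = 0.934), a subunit of collagen prolyl hydroxylase, and NAGK (r = 0.933), a kinase of N-acetylglucosamine, with changes of 0.89 ± 0.10, 0.78 ± 0.12 and 0.90 ± 0.09. All of the genes named here but YIPF5, whose change was under 0.5, were called higher, against 11.1% of all genes. They were picked for a pattern that holds the BRCA2 split, so nothing is read from these calls.

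Other genes of each member's biology were read over the 3 treated arms, where 11.1% of all genes were called higher and 7.12% lower and the median log2 fold change of all genes was 0.01. With GSK3i alone, which holds no doubted library, 3.76% were called higher and 3.05% lower. The lists were written with earlier results of these data known, and DIO2, CPA4 and SPOCD1 are left out of the counts.

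Of 30 other genes of thyroid hormone activation, transport and response, 19 were tested, 2 rose and 3 fell, with a median of 0.01. CRYM, a cytosolic thyroid hormone-binding protein, rose by 1.49 ± 0.21 (adjusted p = 6.1e-11). The transporters SLC7A5 and SLCO4A1 stood at -1.30 ± 0.30 and -0.91 ± 0.18, and KLF9, a thyroid hormone-responsive transcription factor, at -0.73 ± 0.29 (adjusted p = 0.0355). The other deiodinases were not tested, since DIO1 had at most 6 counts and DIO3 at most 1 in any library. The named genes of transport, binding and response therefore did not move one way. With GSK3i alone 1 gene rose (CRYM) and 3 fell, and without the 3 doubted libraries 1 rose and 3 fell.

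DIO2 is also a selenoprotein, made by reading a UGA codon as selenocysteine. Of 28 other selenoproteins and factors of their synthesis, 25 were tested, 4 rose and 1 fell (median 0.10). SELENOM, of the endoplasmic reticulum, rose by 1.09 ± 0.14 (adjusted p = 1.16e-13), SELENOW by 0.71 ± 0.10 and SELENOO by 0.59 ± 0.09, and SEPHS1, a selenophosphate synthetase paralogue, stood at -0.57 ± 0.07 (adjusted p = 1.07e-12). With GSK3i alone 2 of 24 rose and none fell, and without the doubted libraries 4 rose and none fell. The 4 of 25 that rose stand against 11.1% of all genes.

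Among 24 other carboxypeptidases and their inhibitors, 11 were tested, 4 were called higher and none lower, with a median of 0.31. CPE, the prohormone-processing carboxypeptidase E, rose by 0.71 ± 0.12 (adjusted p = 3.28e-08). Over all libraries, the untreated included, its median was 879.9 normalised counts in proficient and 1367 in deficient cells. CPXM1, CPA6 and CPA5, the other calls, were at 1.53 ± 0.34, 1.06 ± 0.31 and 0.89 ± 0.37. Their medians over all proficient libraries, the untreated included, were under 7 normalised counts. In the 3 treated arms they reached 10 counts in 2, 1 and 1 of 8 proficient libraries and in 9, 8 and 6 of 9 deficient ones. They thus passed the filter on low counts only through the group where they were high, so that nothing is read from the count of 4 or from the median. CPA3 and CPB1 had at most 2 counts in any library, as did LXN, an inhibitor of carboxypeptidases, and none was tested. With GSK3i alone 8 were tested, 1 rose (CPE, 0.63 ± 0.17, adjusted p = 0.00455) and none fell, and the median was -0.01. Without the doubted libraries 3 were called higher.

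Of 26 other genes of SPOC-domain proteins and the piRNA pathway, 17 were tested, none rose and 2 fell, with a median of 0.0. TCEA1, the transcription elongation factor TFIIS, stood at -0.64 ± 0.11 (adjusted p = 4.23e-07) and TEX15, a germline partner of piRNA-directed silencing, at -0.75 ± 0.31 (adjusted p = 0.0462). Without the doubted libraries neither direction had a call. The 5 others in the table, PIWIL3, DNMT3L, MORC1, MAEL and DDX4, are germline genes and had at most 2 counts in any library. With GSK3i alone 1 of 17 rose, the DNA methyltransferase DNMT3B at 0.54 ± 0.18 (adjusted p = 0.0369; named after its value was seen), and none fell.

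Because the DIO2 promoter holds a CRE, 28 genes of the cAMP response were read as well. All 26 in the table were tested, 5 rose and 2 fell, with a median of 0.02. FOS rose by 1.48 ± 0.47 (adjusted p = 0.00717), ADCY7, an adenylyl cyclase, by 1.06 ± 0.22 and DUSP1, an immediate early phosphatase, by 0.91 ± 0.12, while ATF1, a CRE-binding factor, stood at -1.25 ± 0.07 (adjusted p = 5.64e-60). Over all 22 libraries, which include the untreated ones that the fit leaves out, FOS ranged from 76.0 to 2671 in proficient and from 52.0 to 1061 in deficient libraries. The BRCA2 states overlapped over that set. With GSK3i alone 1 rose (DUSP1) and 2 fell, and without the doubted libraries 2 rose and 2 fell.

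Genes within 500 kb of each start site were read over the 3 treated arms to see whether neighbours moved with the 3 genes. For this, a start site was the 5′ end of the annotated gene in GRCh37. It may differ from the RefSeq start of the promoters shown above, so the windows need not be centred on those promoters. DIO2 had 3 neighbours in the table, with at most 2 counts, and none was tested. Around CPA4, 8 of 23 were tested and 1 was called higher (CPA5, 51.7 kb downstream, at the low level given above) and 2 lower. These were TMEM209 at -0.58 ± 0.08 (85.4 kb upstream) and CEP41 at -0.64 ± 0.08 (149.3 kb downstream). MEST, the paternally expressed gene of the imprinted cluster, was at 0.49 ± 0.09, under the size required for a call. Around SPOCD1, 20 of 37 were tested, 3 were called higher and none lower. They were SERINC2 at 1.25 ± 0.22 (399.2 kb downstream), MTMR9LP at 1.09 ± 0.15 (425.6 kb upstream) and COL16A1, a collagen chain, at 0.74 ± 0.13 (111.7 kb downstream). These 3 of 20 stand against 11.1% of all genes. Without the doubted libraries CPA4 had 1 neighbour higher and 1 lower, and SPOCD1 again 3 higher and none lower.

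**Figure D5:**
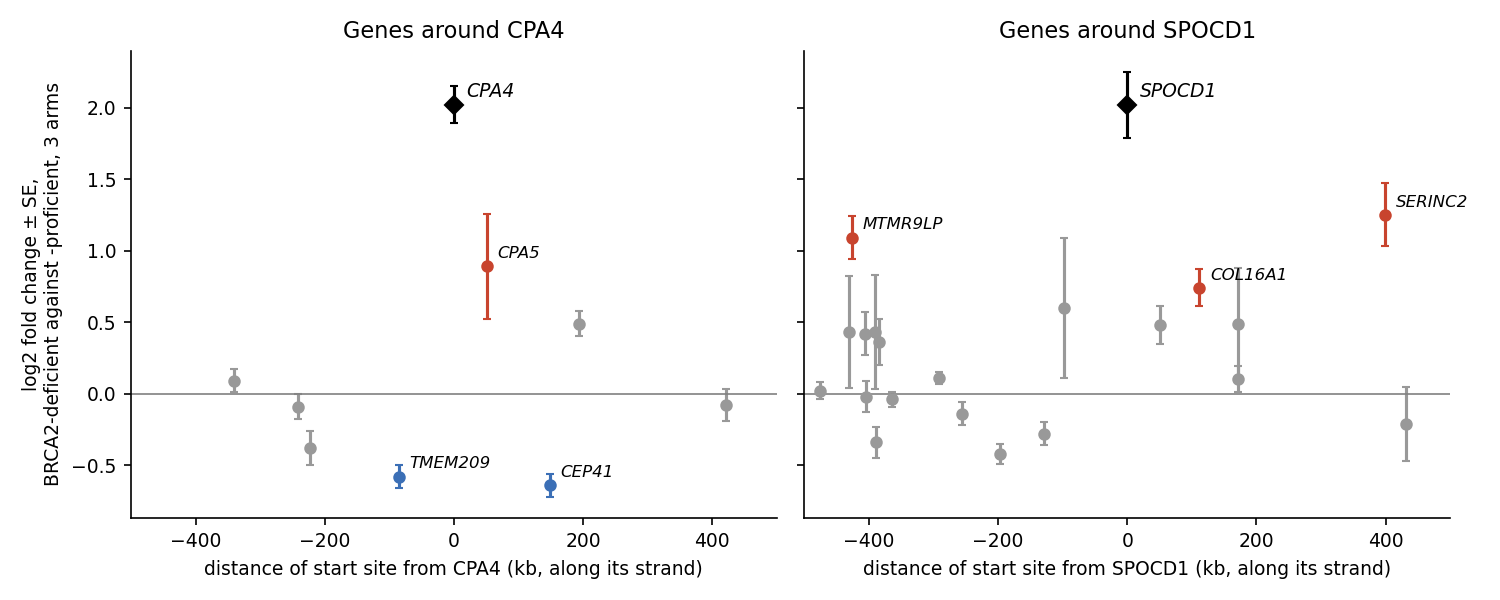
Log2 fold change ± SE over the 3 treated arms (vertical axis) of tested genes by distance of their start site from that of CPA4 (left) or SPOCD1 (right), in kb along the member's strand (horizontal axes). CPA4 and SPOCD1 (diamonds) stand at 2.02, above every tested neighbour; red marks neighbours called higher, blue those called lower and grey those not called.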

How the data were processed

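Poly(A)-enriched, strand-specific RNA-seq of 22 H1299 libraries was analysed from 1 table of raw counts, with genes named by Ensembl identifiers. The authors made these deposited counts by aligning reads to GRCh37 with HISAT2, removing duplicates with Picard and counting uniquely mapping reads with featureCounts. The submitters' processing notes name HISAT2 2.0.4, SAMtools 1.4, Picard 1.9.2 and featureCounts 1.5.0. Which Ensembl release was used, and whether counting used strand, is not given in the sources used here, so overlapping antisense genes are uncertain. Duplicate removal takes proportionally more reads from abundant genes.

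Of 37908 identifiers, 36479 were matched to a symbol in the GENCODE annotation or the gene name table. Totals of 18938266 to 29280122 counts per library set the precision, and intervals cover no source of error beyond the libraries compared. Groups came from the labels, and the study describes the replicates as independent experiments. Each comparison was fitted across all genes on its own libraries with DESeq2 1.42.0 in R 4.3.3 (Wald test, median-of-ratios size factors, Benjamini-Hochberg adjustment). A gene was called at an adjusted p below 0.05 and a log2 fold change over 0.5 in size. A gene was tested unless more than 3 libraries of the fit had under 10 counts, and in fits over more than 2 groups if at least 3 libraries had 10 or more. Normalised read counts are counts divided by size factors over all 22 libraries. A pseudocount of 1 was added before taking log2 for likeness. Simulated counts with known changes were used to test the fits. Alternatives were edgeR 4.0.16 (quasi-likelihood), TMM size factors, no filter, 1 model over all groups, the replicate number as a block, leaving out each library, and, chosen after seeing the data, leaving out 2 or 3 doubted libraries.

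The genes named are the 3 members, the 3 most similar to each by Pearson r, the 3 just below them in the ranking, called genes of each list (at most the 4 largest), relatives under the filter and called neighbours within 500 kb. The members and lists were chosen with earlier results of these data known. In 5 of the 7 pairs of groups tested, every pair of same-numbered libraries deviated together from its group means over 11898 genes (r 0.14 to 0.87). The numbers were therefore taken to pair the libraries there. The main fits held no replicate term, and the fits with the replicate number as a block are given as an alternative. In the other 2, which hold the BRCA2-proficient siβ-catenin libraries, r was -0.42 to 0.02. Promoter sequences are from RefSeq (GRCh38.p14), and no coordinate was converted between builds. A few genes that these rules select are not reported here.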

Additional observations from a re-analysis of the deposited data

How the results depend on the processing

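Of 414 values of DIO2, CPA4 and SPOCD1 under an alternative, 404 stayed on their side of the threshold, 6 lost a call and 4 gained one, and no called value changed sign. With 1 model over all groups DIO2 was called in BRCA2 depletion under GSK3i (0.90, adjusted p = 0.028), in siβ-catenin under GSK3i in proficient cells (0.86, adjusted p = 0.0367) and in the difference between backgrounds in the GSK3i response of siβ-catenin cells (-1.29, adjusted p = 0.0223), and SPOCD1 was no longer called with siβ-catenin under GSK3i in deficient cells (1.14, adjusted p = 0.0579). With edgeR, SPOCD1 was not called there (1.16, adjusted p = 0.061) nor in proficient cells (1.53, adjusted p = 0.145), where leaving out 1 library at a time gave 1.12 to 2.12. With the replicate block, the DIO2 difference between backgrounds in the GSK3i response of siβ-catenin cells was called (-1.38, adjusted p = 0.0297); libraries of that fit share only a number in 1 background. The block changed no other call of the 3 genes. The cause of these shifts was not tested.

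Counts of called genes moved by over 1.5 times with edgeR for BRCA2 depletion under GSK3i (1112 to 645) and under both treatments (1319 to 483), for siβ-catenin under GSK3i in deficient (939 to 267) and proficient cells (836 to 183), and to 0 from 9, 79 and 1 for GSK3i with siβ-catenin in proficient cells and both differences between backgrounds, where DESeq2 gave 263, 2895 and 326 genes with an unadjusted p below 0.05. With the block they went from 4888 to 2020 (siβ-catenin arm), 79 to 264 and 9 to 3. With 1 model they went from 79 to 722, 9 to 1 and 1 to 0, and with no filter from 1 to 0. Leaving out 1 library gave 608 to 1302, 2879 to 4912, 748 to 1603, 2217 to 3575, 3 to 28, 366 to 1037, 292 to 855, 12 to 910 and 0 to 11 for the counts of 1112, 4888, 1319, 3534, 9, 939, 836, 79 and 1. Without 2 doubted libraries the counts of 9, 79 and 1 were 1099, 42 and 11.

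The siβ-catenin arm, the GSK3i response of proficient siβ-catenin cells and its difference between backgrounds could not be fitted without all 3 doubted libraries, since no proficient siβ-catenin library is left. DIO2 rests on 19 to 59 counts per proficient library, which limits what its comparisons there can show. Described comparisons with the untreated libraries were varied in 1 case, siβ-catenin in proficient cells.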
